A study of Homo sapiens with 20 samples.

Results

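The acute-phase proteins are plasma proteins whose concentration changes quickly during infection or injury, and 10 of them were followed here through the differentiation of HepaRG cells. The genes were CRP, SAA1, SAA2, SAA4, HP, HPX, ORM1, LBP, HAMP and SERPINA3, and a probe was taken as theirs where its transcript accession is listed under one of those symbols in RefSeq. This rule used no measured value and found 14 of the 42405 probes on the array, which stand for 10 of 35372 genes. All 10 passed the filter on dim probes, as did 22221 genes in all.

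HepaRG is a human hepatoma line that came from a hepatocellular carcinoma. Its cells behave as hepatic progenitors and, once confluent, give rise to hepatocyte-like and biliary-like cells in the same dish. RNA was hybridised to 20 arrays, 4 for each of 5 conditions: D4, proliferating cells at day 4; D15, confluent cells at day 15; D30 − DMSO, cells kept to day 30 without dimethyl sulfoxide (DMSO); D30 + DMSO, cells given 2% DMSO from day 15 to day 30; and D34 ± DMSO, cells from which DMSO was withdrawn for 4 days after day 30. The medium of every condition held serum, insulin and hydrocortisone, a glucocorticoid. All samples came from the same line, the study speaks of 4 independent experiments, and each array read the RNA of a whole dish, so that fewer cells expressing a gene and less RNA per cell cannot be told apart.

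Hepatocytes make most acute-phase proteins. Interleukin-6 and related cytokines act through a shared receptor chain, JAK kinases and the transcription factor STAT3, while interleukin-1 and tumour necrosis factor act through NF-κB, and factors of the C/EBP family bind many of the same promoters. Glucocorticoids strengthen the response of several of these genes. HAMP, which encodes hepcidin, the hormone that limits iron release from cells, is also controlled by iron through bone morphogenetic proteins and SMAD factors.

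Values are given as signal, the background-subtracted fluorescence of a probe after every array was scaled to a 75th percentile of 546 units, or as log2 signal, on which 0 is that percentile. Signals of the brightest probes are given in units of 1000, marked k. Signals of different probes were not compared, apart from sums over marker lists, in which the brightest probes weigh most. A gene was called different between a pair of conditions where the adjusted p, from limma with Benjamini-Hochberg adjustment over the 22221 genes, was below 0.005 and the fold above 2. Before scaling, the 75th percentile of the 20 arrays ran from 407 to 766 units and 61.1% to 74.2% of spots were well above background. Replicate arrays correlated at r = 0.955 to 0.992 over genes. The 20 arrays lay on 4 slides scanned in 2 sessions, and all 5 arrays numbered replicate 4 lay on slide 4, which made up the second session. That slide also held D15 replicate 3 and D30 + DMSO replicate 3. Leaving out D30 + DMSO replicate 4 therefore keeps an array of that slide in the condition. The 5 replicate 4 arrays gave the lowest value of their condition for 41.7% to 52.3% of all genes. D30 + DMSO replicate 4 was the lowest D30 + DMSO array for 9 of the 10 acute-phase genes, HP being the exception, and for 44.5% of all genes. Differences that rest on that array are therefore also given without it, and those of CRP and LBP also within the slide and with slide as a block in the fit. All 10 hepatocyte markers examined, ALB, APOA1 and HNF4A among them, were measured and each rose from D4 to D15. Of 6 stellate or endothelial markers, DES and RGS5 passed the filter and were well above background on every array. Their summed signal was 403 to 994 units at D4 and 494 to 914 in D30 + DMSO. The endothelial markers PECAM1, VWF and STAB2 and the lymphocyte marker CD3E did not pass the filter. Of 8 macrophage and leukocyte markers 5 passed it, PTPRC and CD14 among them. Their summed signal was 1730 to 2370 units at D4, 3440 to 3900 at D15 and 4250 to 5370 in D30 − DMSO. It was 3140 to 3740 in D30 + DMSO and 2800 to 3710 in D34 ± DMSO. CD14 was the brightest of them, at a mean log2 signal of 1.66 at D4 and 2.83 in D30 − DMSO. PTPRC was at -3.2 and -2.94 there. The part of these markers in the results was not tested.

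Upstream sequence was available for 6 of the 10 genes, and 4 of these are shown because the genes behaved differently below: CRP, SERPINA3, ORM1 and HAMP. Each runs from 250 bases before the annotated start to the last base before it, 5′ to 3′ on the gene's own strand, from RefSeq on GRCh38.p14. The CRP window is chr1:159714590-159714839, minus strand, that of SERPINA3 is chr14:94612141-94612390, plus strand, that of ORM1 is chr9:114322848-114323097, plus strand and that of HAMP is chr19:35282278-35282527, plus strand. Capitals mark matches, on either strand, to TTCNNNGAA (the STAT motif), GGNNTTTCC (a shortened NF-κB motif) or TTNNGNAA (the C/EBP motif).
CRP: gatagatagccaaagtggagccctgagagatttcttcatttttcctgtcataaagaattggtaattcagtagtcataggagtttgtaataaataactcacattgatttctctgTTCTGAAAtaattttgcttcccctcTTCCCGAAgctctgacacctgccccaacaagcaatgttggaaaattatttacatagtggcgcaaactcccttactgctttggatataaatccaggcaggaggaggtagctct
SERPINA3: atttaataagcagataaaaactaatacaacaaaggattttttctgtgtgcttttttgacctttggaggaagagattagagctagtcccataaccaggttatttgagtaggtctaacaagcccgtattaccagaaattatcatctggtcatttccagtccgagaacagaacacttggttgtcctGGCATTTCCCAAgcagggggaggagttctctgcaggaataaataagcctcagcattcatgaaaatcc
ORM1: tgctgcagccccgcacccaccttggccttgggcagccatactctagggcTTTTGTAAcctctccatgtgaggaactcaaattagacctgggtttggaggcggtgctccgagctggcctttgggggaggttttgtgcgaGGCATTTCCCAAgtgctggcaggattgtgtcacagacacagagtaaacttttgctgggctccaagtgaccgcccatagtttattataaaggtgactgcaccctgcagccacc
HAMP: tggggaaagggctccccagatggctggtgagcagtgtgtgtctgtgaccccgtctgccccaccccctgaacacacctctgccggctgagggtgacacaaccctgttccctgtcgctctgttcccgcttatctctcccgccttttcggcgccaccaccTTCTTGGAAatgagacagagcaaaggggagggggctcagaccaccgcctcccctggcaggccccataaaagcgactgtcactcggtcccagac
The CRP window held 2 matches to the C/EBP letters, at 137 to 130 and 112 to 105 bases before the start. SERPINA3 and ORM1 each held the run GGCATTTCCCAA, in which the NF-κB and C/EBP letters overlap by some bases. ORM1 held 1 further C/EBP match and HAMP held a single match, to the STAT letters, 93 to 85 bases before its start. Of the windows not shown, that of SAA4 held 6 C/EBP matches and that of HPX 1. Neither held the STAT or the NF-κB letters. Over the 35116 windows of the same length in the RefSeq table, 6.57% held the STAT letters, 5.48% the NF-κB letters and 33.2% the C/EBP letters. The match of letters is a description of the sequence, and no binding was measured here.

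The question of the early time points was which liver functions appear as proliferating progenitors become confluent. Between D4 and D15, 8 of the 10 acute-phase genes rose, against 5.79% of all genes tested, and none fell. The median difference over the 10 genes was 2.57 on the log2 scale, against 0.04 over all genes. For 9 of the 10 the 4 D15 arrays all lay above the 4 D4 arrays, as they did for 12.7% of all genes. HAMP was the gene whose arrays overlapped.

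C-reactive protein, CRP, binds phosphocholine on bacteria and dying cells. At D4 its signal was 4.07, 3.27, 3.14 and 8.48 on replicates 1 to 4, and not well above background on any of them. At D15 it was 139, 184, 167 and 190. The rise was at least 23.5-fold, taking for each D4 array the dimmest signal that counted as well above background on it or, where higher, the probe's own (limma; measured means of log2 signal -1.69 ± 0.20 and -6.98 ± 0.66, SD, n = 4; adjusted p = 3.48e-07). A second CRP probe, well above background on 2 of the 4 D4 arrays, rose 22.6-fold. The rise of the brightest probe was 16.9-fold with a floor of 10 units and 3.84-fold with normexp background correction (offset of 50 units), so that its size depends on how dim signals are treated.

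Hemopexin, HPX, carries free heme in plasma. Its signal was 260, 211, 102 and 699 at D4 and 7244, 6186, 7189 and 10799 at D15, a rise of 30.7-fold (log2 difference 4.94, SE 0.38, adjusted p = 1.8e-08). Haptoglobin, HP, carries free hemoglobin, and it went from a geometric mean of 79.0 k at D4 to 458 k at D15 (log2 difference 2.53, SE 0.21). ORM1, an acidic glycoprotein that binds drugs, rose from 64.6 to 396 k (log2 difference 2.62, SE 0.25). The brightest HP spot reached 70.3% of the scanner's limit and the brightest ORM1 spot 55.1%, and no spot of any of the 10 genes was flagged as saturated. HP and HPR, like ORM1 and ORM2, are near-identical copies whose transcripts may bind each other's probes, so that each pair is uncertain as to its source.

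The serum amyloid A genes encode apolipoproteins of high-density lipoprotein, of which SAA1 and SAA2 are the inducible forms and SAA4 the constitutive form. SAA4 had a signal of 215, 518, 397 and 485 at D4 and of 6238, 7642, 6626 and 7396 at D15, and rose 18.2-fold (log2 difference 4.18, SE 0.37). SAA1 rose 4.69-fold and SAA2 8.40-fold. The deviations of SAA1 and SAA2 from their condition means correlated at r = 0.991 over the 20 arrays. These 2 genes are again near-identical, and the arrays do not show how much of each signal came from the other. SERPINA3, which encodes the protease inhibitor α1-antichymotrypsin, rose 5.47-fold by its brightest probe (log2 difference 2.45, SE 0.34) and 6.10- and 6.42-fold by its others.

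LBP, the lipopolysaccharide-binding protein that hands bacterial endotoxin to CD14, and HAMP were not called. LBP had a signal of 612, 1195, 748 and 1877 at D4 and 1924, 2063, 2419 and 3340 at D15. The arrays did not overlap, and the log2 difference of 1.24 (SE 0.38) had an adjusted p of 0.0227, which became 0.00224 when D30 + DMSO replicate 4 was left out of the fit. HAMP ranged from 138 to 274 at D4 and from 137 to 189 at D15, with overlapping arrays and a log2 difference of -0.29 (95% interval -0.76 to 0.19).

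**Figure D1:**
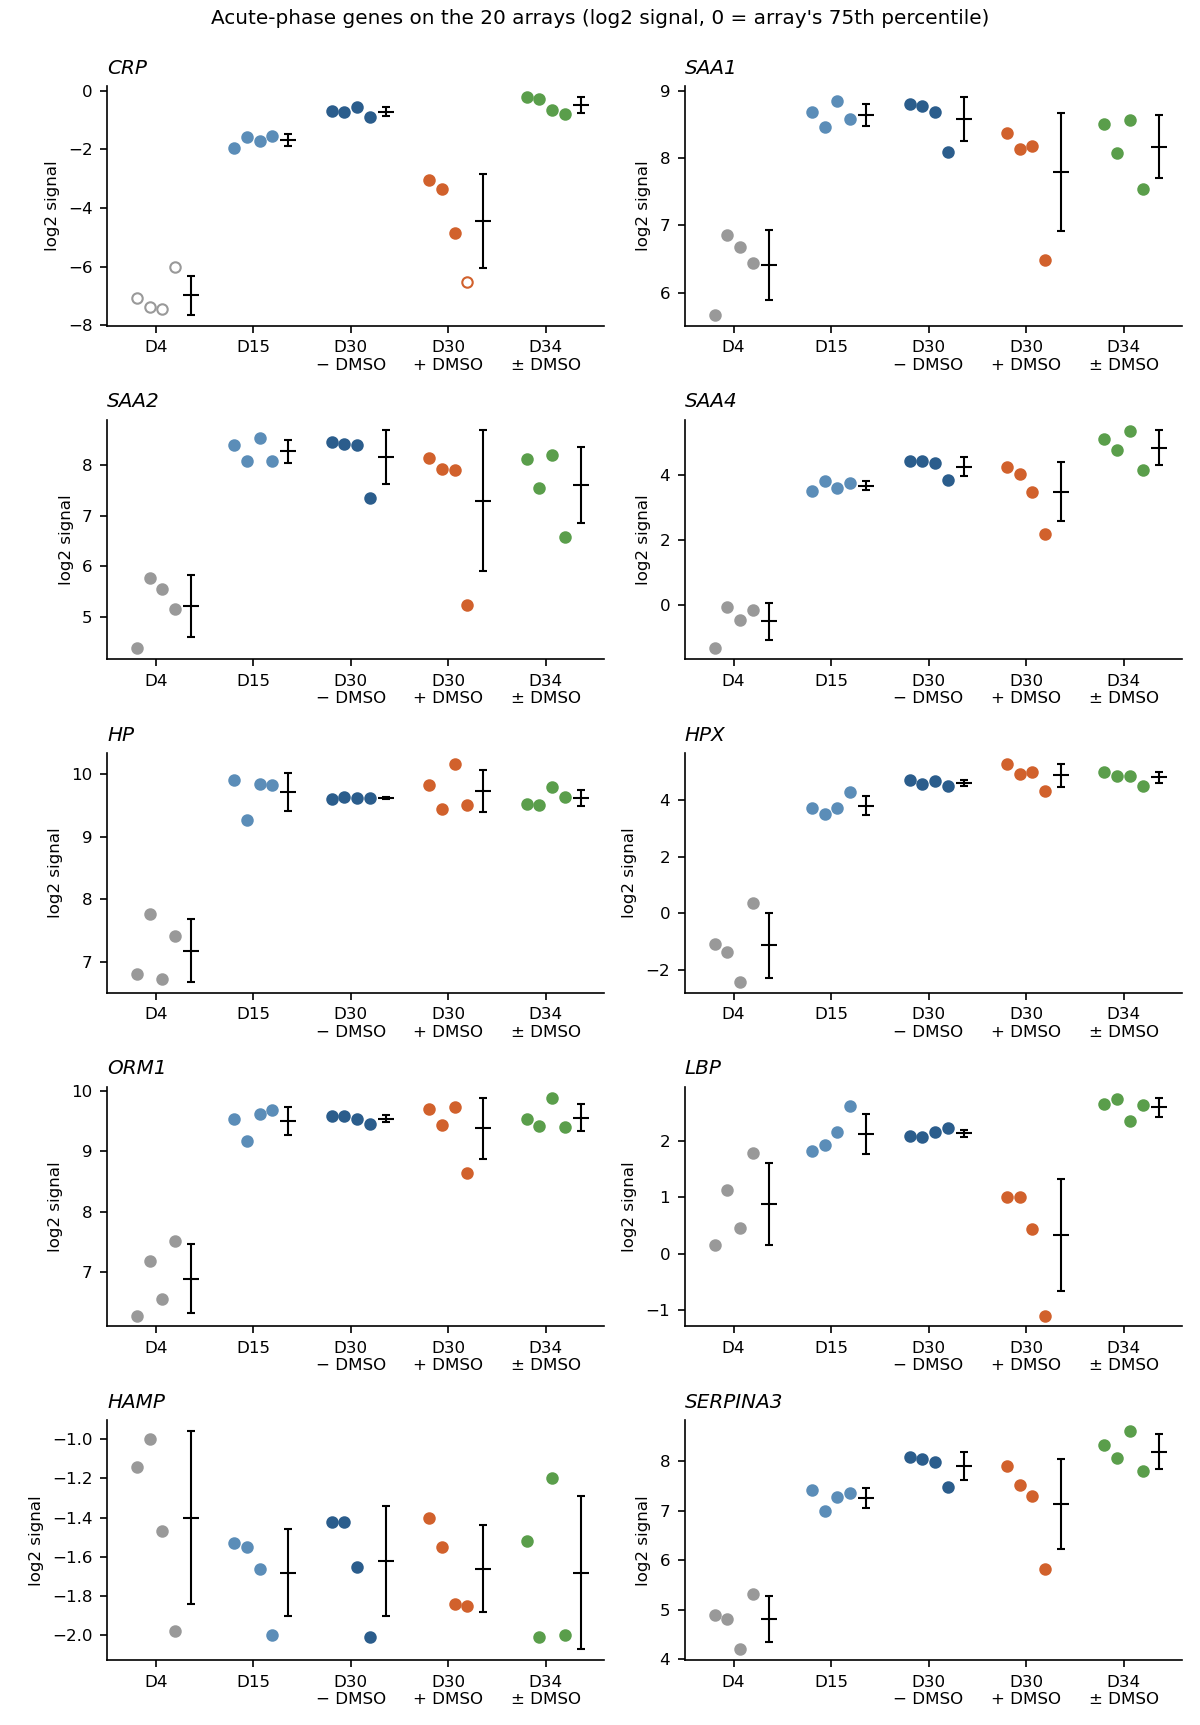
Log2 signal of the 10 acute-phase genes (vertical axis, 0 = the 75th percentile of an array) on the 20 arrays, grouped by condition along the horizontal axis with replicates 1 to 4 from left to right; crosses and bars give the mean ± SD of 4 arrays, and open points were not well above background. CRP had no D4 array well above background, its D30 + DMSO arrays ran from -6.52 to -3.05, and HAMP was well above background on every array without a call in any comparison.

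Between D15 and D30 − DMSO, cells were kept for 15 more days without DMSO, and none of the 10 genes was called, with 2 genes (0.009%) called among all 22221. The unadjusted p was below 0.05 for 1 of the 10, HPX, and for 662 genes in all. The 4 D30 − DMSO arrays lay above the 4 D15 arrays for CRP, SAA4, HPX and SERPINA3, that is for 4 of 10 genes against 1.23% of all genes. CRP was at 335, 328, 376 and 293 in D30 − DMSO, 1.96-fold its D15 level (95% interval of the log2 difference -0.12 to 2.06). HPX was at 1.74-fold, SERPINA3 at 1.56-fold and SAA4 at 1.51-fold. HP, ORM1, SAA1, SAA2, LBP and HAMP had overlapping arrays and log2 differences between -0.12 and 0.06.

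The addition of DMSO was the central comparison of the study. In D30 + DMSO, CRP and LBP fell and none of the 10 genes rose, against 4.18% of all genes called lower. These were the 2 genes whose D30 + DMSO arrays all lay below the D30 − DMSO arrays, which held for 12.5% of all genes. The mean was lower for 8 of the 10 genes, HP and HPX being higher, and the median log2 difference was -0.77, against 0.04 over all genes. Without D30 + DMSO replicate 4 the mean was lower for 6 genes, ORM1 and HAMP being then at 0.08 and 0.03, and the median was -0.25, against 0.08 over all genes, while CRP and LBP stayed called.

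CRP had a signal of 66.0, 53.4, 18.9 and 5.97 in D30 + DMSO against 335, 328, 376 and 293 in D30 − DMSO. Every DMSO array lay far below every array without it, and replicate 4 was not well above background. The difference was 13.2-fold (log2 means -4.44 ± 1.59 and -0.72 ± 0.15, SD, n = 4; log2 difference -3.72, SE 0.52, adjusted p = 4.54e-05). Without D30 + DMSO replicate 4 it was 8.17-fold (adjusted p = 1.71e-05), and with normexp background correction, which adds an offset of 50 units, it was 3.89-fold (adjusted p = 1.37e-07). The second CRP probe gave 50.9, 33.4, 31.3 and 21.4 against 277, 229, 200 and 203, a 6.91-fold lower level (adjusted p = 7.62e-05 over all probes). On slide 3, where D30 + DMSO replicates 1 and 2 lay beside D30 − DMSO replicate 1, the log2 difference of the brightest probe was -2.50, and on slide 4 it was -4.78. With slide as a block in the fit it was -3.78 (limma, adjusted p = 0.000112).

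LBP had a signal of 1094, 1089, 741 and 257 in D30 + DMSO against 2332, 2298, 2432 and 2538 in D30 − DMSO. The arrays without DMSO lay close together, while those with DMSO were spread out below them. LBP was 3.47-fold lower (log2 difference -1.80, SE 0.38, adjusted p = 0.00228), 2.50-fold lower without D30 + DMSO replicate 4 (adjusted p = 0.00408), and lower by 1.09 and 2.54 on the log2 scale within slides 3 and 4. With slide as a block in the fit the log2 difference of LBP was -1.89 (limma, adjusted p = 0.00277). The call was lost, at adjusted p = 0.00631 to 0.00732, when any 1 of the 4 D30 − DMSO arrays or D30 + DMSO replicate 3 was left out. When the other conditions were left out of the fit, so that 8 arrays remained, the adjusted p was 0.00638 for CRP and 0.0203 for LBP, and neither passed the threshold of 0.005.

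SAA1, SAA2, SAA4 and SERPINA3 had lower means in D30 + DMSO, at 1.71- to 1.81-fold, and were not called (adjusted p = 0.135 to 0.315). SAA2 had a signal of 155, 133, 131 and 20.5 k in D30 + DMSO against 192, 187, 185 and 89.8 k in D30 − DMSO. The arrays overlapped, and in both conditions replicate 4 lay apart from the other 3. SERPINA3 was at 130, 99.9, 85.8 and 30.7 k against 149, 145, 138 and 96.8 k. SAA4 was at 10414, 8897, 6062 and 2495 against 11749, 11695, 11266 and 7852. Without D30 + DMSO replicate 4 the log2 differences were -0.35 for SAA1, -0.17 for SAA2, -0.35 for SAA4 and -0.33 for SERPINA3, in place of -0.79, -0.86, -0.78 and -0.77. The second SAA2 probe, of another transcript, stood at 2.50-fold lower with adjusted p = 0.0532 over all probes, and the other SERPINA3 probes at 2.11- and 1.96-fold lower with adjusted p = 0.0504 and 0.0655.

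HP, HPX and ORM1 were the 3 genes with a difference under 1.3-fold among those that changed over the 5 conditions. HP was at 493, 382, 624 and 398 k in D30 + DMSO against 426, 434, 430 and 431 k in D30 − DMSO, a log2 difference of 0.11 (95% interval -0.34 to 0.56). The D30 − DMSO arrays of HP were nearly level, with a coefficient of variation of 0.839%, while the DMSO arrays lay on both sides of them. HPX was at 21054, 16614, 17422 and 10928 against 14202, 13066, 14032 and 12299, a log2 difference of 0.26 (-0.53 to 1.06). ORM1 was at 459, 377, 463 and 218 k against 421, 419, 407 and 383 k, a log2 difference of -0.16 (-0.69 to 0.37). Without D30 + DMSO replicate 4 the log2 differences of HP, HPX and ORM1 were 0.19, 0.45 and 0.08. HP and HPX met the rule for a gene not affected, which also asks for a coefficient of variation under 30% in both conditions. ORM1 missed it with 30.2% in D30 + DMSO. The count of such genes was 1 without D30 + DMSO replicate 2 or replicate 3 and 4 without replicate 4. HAMP was at 208, 187, 153 and 151 against 205, 205, 174 and 135, with a log2 difference of -0.04 (-0.51 to 0.44).

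**Figure D2:**
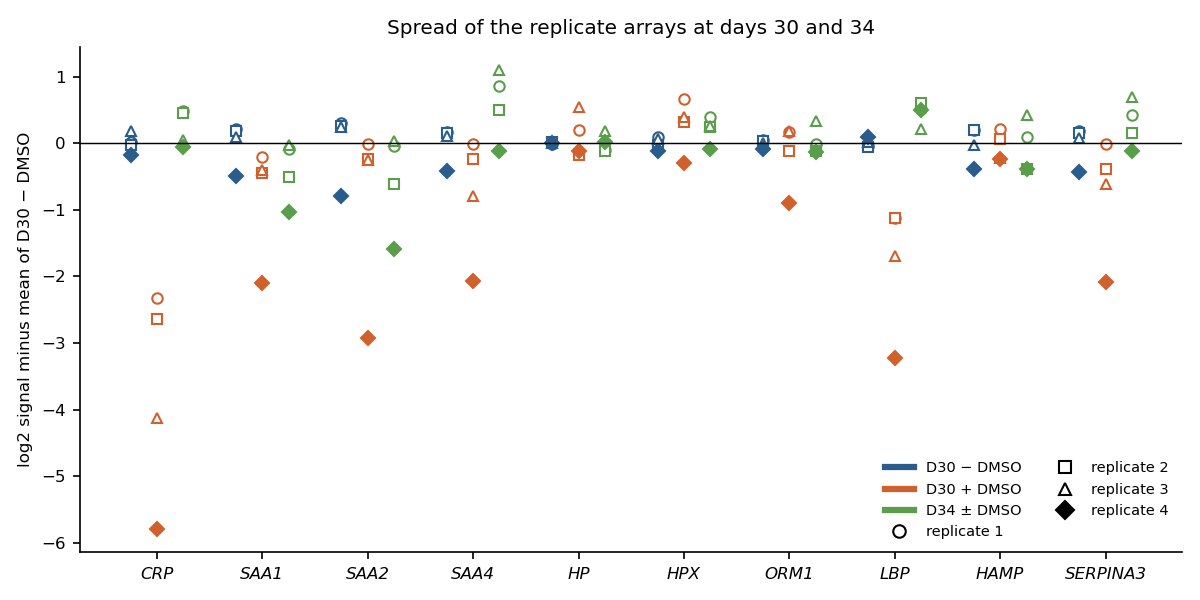
Log2 signal of each array minus the mean of the D30 − DMSO arrays (vertical axis) for the 10 genes (horizontal axis), in D30 − DMSO, D30 + DMSO and D34 ± DMSO, with symbols for replicates 1 to 4 and replicate 4 filled. D30 + DMSO replicate 4 was the lowest of the D30 + DMSO arrays for 9 of 10 genes, and CRP and LBP lay below the D30 − DMSO arrays on all 4 D30 + DMSO arrays.

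The study then asked which of the changes are undone once DMSO is taken away. Between D30 + DMSO and D34 ± DMSO, CRP and LBP rose and none of the 10 fell, against 4.95% of all genes called higher. For the same 2 genes all 4 D34 ± DMSO arrays lay above all 4 D30 + DMSO arrays, as for 11.2% of all genes. This comparison and that of DMSO addition share the D30 + DMSO arrays, so an unusual array among these moves both.

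CRP stood at 467, 452, 344 and 319 in D34 ± DMSO, 15.5-fold above D30 + DMSO (log2 difference 3.96, SE 0.52, adjusted p = 1.67e-05), and at 9.65-fold without D30 + DMSO replicate 4. LBP stood at 3428, 3633, 2778 and 3386, 4.77-fold above D30 + DMSO (log2 difference 2.25, SE 0.38, adjusted p = 0.000248), and at 3.43-fold without that array. With normexp background correction CRP was 4.50-fold higher. By the methods' t-test, run on the values as processed here, neither gene was called (adjusted p = 0.0245 and 0.0317). By limma LBP was not called when the arrays of the other conditions were left out (adjusted p = 0.00805). Within slides 3 and 4 CRP was higher by 2.75 and 4.91 on the log2 scale and LBP by 1.50 and 2.96. With slide as a block in the fit the log2 differences were 3.89 for CRP and 2.22 for LBP (limma, adjusted p = 4.63e-05 and 0.000504).

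SAA4 stood at 18987, 14779, 22406 and 9643 in D34 ± DMSO, and SERPINA3 at 174, 146, 212 and 121 k. Their arrays overlapped those of D30 + DMSO by the lowest D34 ± DMSO array, and neither was called, with log2 differences of 1.36 (SE 0.37, adjusted p = 0.0122) and 1.06 (SE 0.34, adjusted p = 0.0299). The other 2 SERPINA3 probes were 2.53- and 2.65-fold higher, with adjusted p of 0.01 and 0.00979 over all probes. SAA1 and SAA2 differed by 0.38 and 0.31 on the log2 scale. Without D30 + DMSO replicate 4 the differences were 0.93 for SAA4, 0.62 for SERPINA3, -0.06 for SAA1 and -0.39 for SAA2. HP, HPX, ORM1 and HAMP differed by between -0.11 and 0.18, and HP and HPX again met the rule for a gene not affected.

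D34 ± DMSO was also set against D30 − DMSO, that is against cells that never met DMSO and were 4 days younger. None of the 10 genes was called, against 1.52% of all genes, and the unadjusted p was below 0.05 for none of them and for 3398 of all genes by limma. Of the 10, LBP alone had arrays that did not overlap, with all 4 D34 ± DMSO arrays above the D30 − DMSO arrays (5.27% of all genes), at 1.37-fold (95% interval of the log2 difference -0.34 to 1.26; adjusted p = 0.728). CRP was 1.18-fold higher (-0.85 to 1.32). SAA1 and SAA2 had lower means, by 1.33- and 1.47-fold, with D34 ± DMSO signals for SAA1 of 198, 147, 207 and 101 k and for SAA2 of 152, 102, 160 and 52.1 k.

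**Figure D3:**
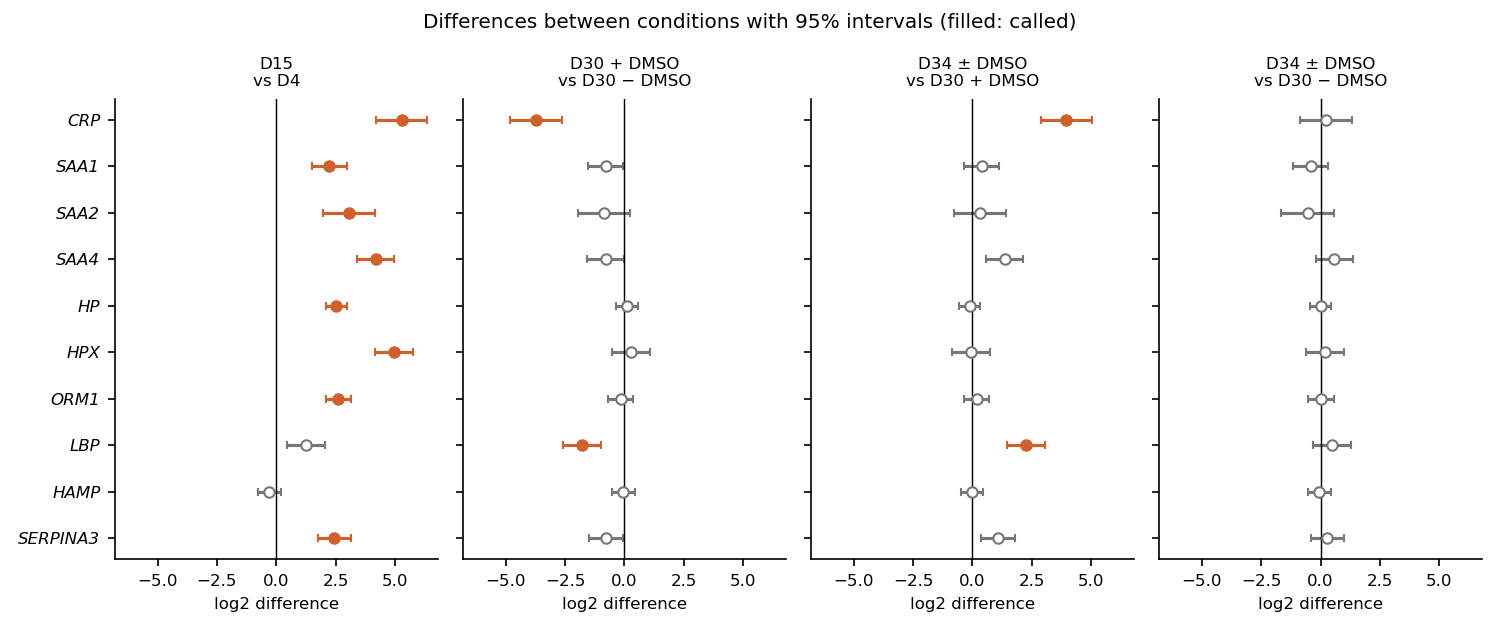
Log2 differences between conditions (horizontal axis) with 95% intervals from limma for the 10 genes (vertical axis), 4 arrays a condition; filled points were called. The 8 called genes of D15 vs D4 lay between 2.23 and 5.28, CRP and LBP were the called genes on DMSO addition and removal, and none was called in D34 ± DMSO vs D30 − DMSO.

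Over all 5 conditions, 5 of the 10 genes changed by limma's F-test (a span of over 3-fold between the lowest and the highest mean, with a Bonferroni-adjusted p under 0.001), against 5.37% of all genes. These were CRP, SAA4, HP, HPX and ORM1. SERPINA3 had a span of 10.5-fold and missed the threshold at 0.00169, while SAA1, SAA2 and LBP had spans of 4.69-, 8.40- and 4.77-fold and adjusted p of 0.752 or above. LBP was lowest in D30 + DMSO, HAMP in D15, and the other 8 in D4. The highest mean fell in D34 ± DMSO for CRP, SAA4, ORM1, LBP and SERPINA3, in D15 for SAA1 and SAA2, in D30 + DMSO for HP and HPX, and in D4 for HAMP.

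Of 25 further acute-phase proteins, 24 were tested and 22 rose between D4 and D15, with PROS1 and MBL2 not called, against 5.79% of all genes called higher. On DMSO addition 3 fell, against 4.18% of all genes, and none rose, with a median log2 difference of -0.16 against 0.04 over all genes. Ceruloplasmin, CP, a copper carrier that oxidises iron, was at 1080, 1140, 811 and 285 in D30 + DMSO against 2760, 3180, 3050 and 2310 in D30 − DMSO (log2 difference -1.94, SE 0.31, adjusted p = 0.000179). A2M, a broad protease trap, fell by 2.20 and ITIH3, a hyaluronan-binding inhibitor, by 2.90 on the log2 scale. All 3 rose again after removal, by 1.88, 1.71 and 3.09, and so did LRG1, by 1.46. LRG1 had been at -0.98 on addition, with adjusted p = 0.0136. Without D30 + DMSO replicate 4 the differences of CP, A2M and ITIH3 were -1.49, -1.88 and -2.41 on addition, and all 3 stayed called. SERPING1 was then called higher on addition, at 1.05 in place of 0.80 (limma, adjusted p = 0.00429). On removal it was called lower, at -1.14 in place of -0.88 (adjusted p = 0.00204). ORM2, FGL1 and APCS moved on addition from -0.22, -0.10 and -0.07 to 0.06, 0.29 and 0.21. The median of the list was not taken without that array. The fibrinogen chains FGA, FGB and FGG were not called in either direction, at 0.90, 0.45 and 0.45 on addition and at -0.16, -0.05 and 0.01 on removal. ORM2 and HPR, the copies of ORM1 and HP, gave -0.22 and 0.02 on addition and 0.24 and 0.07 on removal.

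Of 9 cytokines that induce acute-phase genes, 6 were tested. Between D4 and D15 LIF was called lower (log2 difference -1.48, limma, adjusted p = 0.000587) and none was called higher. IL6 was at -1.60 there (adjusted p = 0.0053), and the median of the list was -1.07, against 0.04 over all genes. On DMSO addition IL6 and LIF fell, against 4.18% of all genes called lower. The median of the list was then -0.13, against 0.04 over all genes. IL6 was dim, at 19.8, 15.4, 14.3 and 10.9 in D30 + DMSO, of which 2 arrays were not well above background, against 61.3, 53.7, 54.2 and 32.5 in D30 − DMSO (log2 difference -1.73, SE 0.39, adjusted p = 0.00391). The call was lost without D30 + DMSO replicate 4 (log2 difference -1.59, adjusted p = 0.0155). On removal IL6 was at 1.11 with adjusted p = 0.0523. LIF, a relative of interleukin-6 that uses the same receptor chain, was at 83.2, 51.6, 53.9 and 76.5 against 334, 272, 294 and 281, a log2 difference of -2.18, and rose by 2.05 on removal. IL1A, TNF and IL22 did not pass the filter on dim probes.

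Among 13 receptors and kinases, IL6R, the ligand-binding chain for interleukin-6, moved the other way. It stood at 1000, 697, 717 and 460 in D30 + DMSO against 303, 289, 299 and 171 in D30 − DMSO, a log2 difference of 1.42 (SE 0.30, adjusted p = 0.00199), and fell by 1.39 on removal. IL1RN, a secreted antagonist of interleukin-1, fell by 2.46 on addition, a call that was lost without D30 + DMSO replicate 4 (-1.97, adjusted p = 0.0111), and was at 1.97 on removal (adjusted p = 0.0114). The shared receptor chain IL6ST was at -0.26 and 0.01, with adjusted p of 0.396 and 0.972. OSMR was at -0.66 on addition and 0.73 on removal (adjusted p = 0.00314 and 0.00104). IL1RAP was at -0.74 and 0.57 (adjusted p = 0.000816 and 0.00552). The differences of OSMR and IL1RAP were short of the 2-fold limit.

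Of 14 transcription factors, 13 were tested and 1 was called on addition, a share near that of all genes (4.18% called lower). RELB, an NF-κB subunit, fell by 1.67 (SE 0.22, adjusted p = 2.59e-05) and was 1.00 higher on removal, just at the 2-fold limit and not called. STAT3 was at -0.26 and 0.05, CEBPB at -0.18 and -0.12, and CEBPD at 0.14 and -0.33. Short of the 2-fold limit, ATF3 was at 0.92 and -0.88 (adjusted p = 0.000699 and 0.000813). NFKBIA was at 0.29 and -0.64 (adjusted p = 0.0807 and 0.00027). CEBPA, HNF4A and CREB3L3 had risen between D4 and D15, whereas STAT3, CEBPB and CEBPD were not called there. Of 5 inhibitors of the signal, TNFAIP3, which restrains NF-κB, fell by 1.40 on addition and was at 0.77 on removal (adjusted p = 0.0229). SOCS3, the feedback inhibitor of the interleukin-6 signal, was at -0.83 and 0.68, with adjusted p of 0.0141 and 0.036. SOCS1 was at -0.58 and 1.00 (adjusted p = 0.0286 and 0.000398), on removal just at the 2-fold limit and not called.

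For HAMP, 18 of 19 genes of its iron and bone morphogenetic protein inputs were tested, while BMP6 did not pass the filter. FTL, the light chain of the iron store ferritin, rose by 1.33 on addition and fell by 1.28 on removal, and SLC40A1, the iron exporter ferroportin that hepcidin binds, was at 0.84 on addition (adjusted p = 0.0169) and fell by 1.24 on removal. HJV, TMPRSS6 and SLC40A1 had risen between D4 and D15. The transferrin receptor TFR2 was at 0.02 and 0.21. Of 9 genes of the glucocorticoid response none was called on addition or removal, with a median log2 difference of 0.28 on addition and of -0.70 on removal, against 0.04 and -0.07 over all genes. On removal KLF9, TSC22D3, PER1 and DUSP1 had an adjusted p below 0.005 (6.17e-05, 0.00286, 0.00361 and 0.00494) at log2 differences of -0.81, -0.85, -0.91 and -0.70, short of the 2-fold limit. TAT, an enzyme of tyrosine breakdown, was at -1.63 (adjusted p = 0.00627), and was called at -2.01 without D30 + DMSO replicate 4 (adjusted p = 0.00084). On addition SGK1 was at -0.76 (adjusted p = 0.00206). The receptor NR3C1 was at -0.13 and 0.05.

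Of 10 plasma proteins known to fall in the acute phase, all 10 rose between D4 and D15, against 5.79% of all genes. ALB, APOA1, TTR and TF stand both in this list and among the hepatocyte markers. SERPINA1 and FGB stand both among those markers and in the list of further acute-phase proteins. The counts of these lists are therefore not separate. On addition AHSG, the protein fetuin-A, fell by 2.65, at 794, 775, 507 and 405 in D30 + DMSO against 3240, 3760, 3800 and 4290 in D30 − DMSO, and on removal it rose to 5680, 4220, 5940 and 4850. SERPINA6, the cortisol carrier, was at 0.83 on addition (adjusted p = 0.0307) and fell by 1.11 on removal. ALB was at 0.28 and -0.27 and TTR at 0.55 and -0.47, and neither was called. None of the 10 hepatocyte markers was called on addition or removal, with medians of 0.41 and -0.20. Among them CPS1 went the other way, at -1.49 and 1.61 (adjusted p = 0.0446 and 0.0263). The summed signal of the 10 hepatocyte markers was 940 to 996 k in D30 − DMSO, 1070 to 1740 k in D30 + DMSO and 915 to 1150 k in D34 ± DMSO. Of 6 biliary markers 4 were tested, with a summed signal of 70.7 to 74.7 k, 55.1 to 81.3 k and 57.4 to 89.5 k in these conditions. Among them SOX9, a factor of biliary and progenitor cells, rose by 1.31 on addition (adjusted p = 0.000738) and fell by 2.09 on removal (adjusted p = 4.76e-06), while KRT7, KRT19 and CLDN4 were not called. Of the macrophage markers MARCO was higher by 2.02 on removal (adjusted p = 0.00316), a call that was lost without D30 + DMSO replicate 4 (1.54, adjusted p = 0.0107). The part of cell composition in the differences was not tested.

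The genes whose log2 signal followed CRP most closely over the 20 arrays were VNN1 (r = 0.975), DUSP9 (0.970) and MYO1A (0.970). VNN1, a pantetheinase of the cell surface, was at -2.07 on addition and 2.84 on removal. For LBP the closest were SPINK1 (r = 0.942), CP (0.917) and SULT1E1 (0.901). SPINK1, a trypsin inhibitor, was at -3.80 and 4.29, and SULT1E1, an estrogen sulfotransferase, was not well above background on any D30 + DMSO array and was at least 19.6-fold higher in D30 − DMSO and at least 25.8-fold higher in D34 ± DMSO. All 6 genes were below D30 − DMSO in D30 + DMSO and back up in D34 ± DMSO, and, with DUSP9 the exception at under 2-fold, were called in both comparisons, also without D30 + DMSO replicate 4. These correlations describe the same 20 arrays, D30 + DMSO replicate 4 among them, and carry no test. The genes were chosen by them, so a fall and return like that of CRP and LBP follows in part from the choice. Their calls add no separate support.

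**Figure D4:**
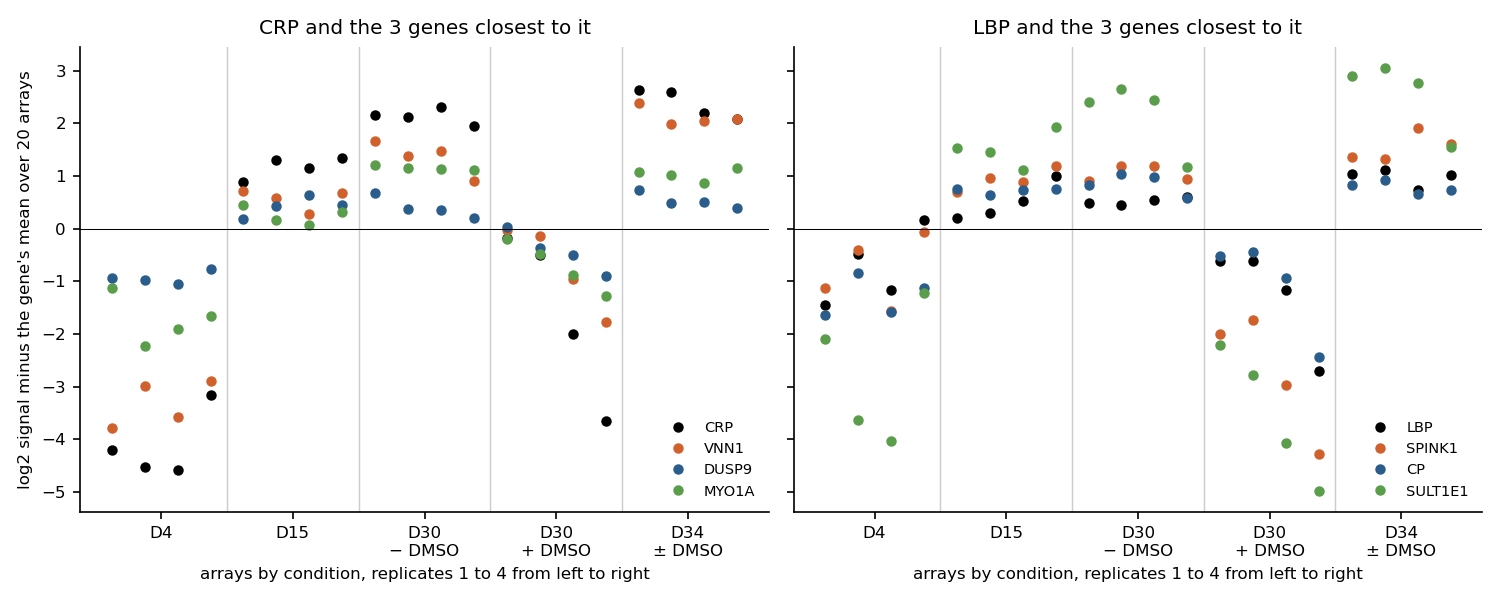
Log2 signal minus each gene's mean over the 20 arrays (vertical axis) for CRP, LBP and the 3 genes most correlated with each, with arrays ordered by condition and replicate along the horizontal axis. In each panel the D4 and D30 + DMSO arrays lay below the gene's mean, with these exceptions. LBP was at 0.17 on D4 replicate 4, and DUSP9 at 0.04 on D30 + DMSO replicate 1. SULT1E1 spanned more than LBP, whose mean log2 signal was 2.59 in D34 ± DMSO and 0.34 in D30 + DMSO.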

How the data were processed

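HepaRG RNA, labelled in 1 colour, was read on 20 Agilent SurePrint G3 arrays. The authors deposited, for each array, the scanner software's output (Agilent Feature Extraction, version 10.7.1.1 per the file headers and 10.7.3.1 per the submitters' processing notes) with background-subtracted intensity per spot, and a matrix of log2 values set against an unnamed baseline. On 21535 probes the deposited log2 matrix differed from log2 intensity, after a shift per array of at most 0.113 and a centring per probe, by a median of 3.58e-07, so that its levels per gene are not kept and only its differences between arrays were used.

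From the 58717 spots that are no controls, spots with an outlier flag were left out (0.451% to 1.10% per array), spots of a probe were averaged and each array was scaled to its 75th percentile. A floor of 1 unit was set before log2. A probe was kept where some condition had it well above background on each of its 4 arrays (26538 probes), and the brightest probe stood for its gene. Symbols came from RefSeq (GRCh38.p14) through the transcript accession and were found for 24826 of 42405 probes. The number of arrays limits the precision.

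limma 3.58.1 in R 4.3.3 was fitted to the 20 arrays with a mean per condition. Pairs of conditions were called at an adjusted p below 0.005 and above 2-fold, after the study's thresholds, with the study's t-test as an alternative. Intervals are at 95%. The fit was tested on simulated data. The study's 4 experiments are taken as the replicates. The 10 genes and the pathway lists were chosen with earlier results of these data known. Named beside them were, of each list, at most 6 called genes by size of the difference on DMSO addition or removal, 12 regulators and copies fixed whatever their values (IL6, IL6R, IL6ST, STAT3, CEBPB, CEBPD, SOCS3, ORM2, HPR, BMP6, TFR2 and NR3C1), and the 3 genes most correlated with CRP and with LBP. The fibrinogen chains, ALB, TTR, IL1A, TNF, IL22, PROS1, MBL2, KLF9, TSC22D3, PER1, DUSP1, TAT, SGK1, OSMR, IL1RAP, ATF3, NFKBIA, SOCS1, DES, RGS5, CPS1, SERPING1, FGL1 and APCS were named after their values were seen. TF and SERPINA1 were named because their lists overlap. Alternatives covered normalization, background correction, filters, blocks, tests, thresholds and the leaving out of each array, and the keeping of flagged spots was added after seeing the data. Some genes of these lists are not reported here by name.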

Additional observations from a re-analysis of the deposited data

Results flagged for a closer look

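Within a condition, 1 array lay apart from the other 3 by Dixon's test in 5 of the 50 sets of 4 arrays, where chance gives about 1 in 20. In D30 + DMSO, replicate 4 was the low array for SAA1, at a log2 signal of 6.48 against 8.13 to 8.37, with a gap of 0.874 of the whole range, and for SAA2, at 5.23 against 7.91 to 8.15, with a gap of 0.918. In D30 − DMSO, replicate 4 was the low array for SAA2, at 7.36 against 8.41 to 8.46 (0.952), and for SAA4, at 3.85 against 4.37 to 4.43 (0.896). At D15, replicate 2 was the low array for HP, at 9.27 against 9.83 to 9.91 (0.875). SAA1 and SAA2 may read each other's transcripts, so that their flags are not independent. All replicate 4 arrays share a slide and a scan session, and the part of either was not tested.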

How the results depend on the processing

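Over 35 settings, of which 20 left out 1 array, no called difference of an acute-phase gene changed direction, and the 8 genes of D15 vs D4 stayed between 7 and 9. The replicate numbers were not taken to pair the arrays in the main fit. Deviations of arrays with the same number in different conditions correlated at r = -0.327 to 0.801 (median 0.275). For other numbers r was -0.63 to 0.523 (median -0.169), and 16 of 20 arrays correlated best with one of their own number. Arrays of the same slide correlated at 0.115 to 0.801 (median 0.388), and those of other slides at -0.63 to 0.54 (median -0.179). The parts of number and slide in this were not tested. With the replicate number as a block, the acute-phase genes called stayed at 8, 0, 2, 2 and 0 in the 5 comparisons and went from 5 to 4 by the F-test. On DMSO addition the 2 acute-phase calls became 1 without a filter on dim probes, 1 with probes well above background on every array (which leaves out CRP), 0 with only the arrays of the 2 conditions and 0 with the methods' t-test, and ran from 1 to 2 when an array was left out. On removal the 2 calls became 1 with that stricter filter, 1 with only the arrays of the 2 conditions, 0 with the methods' t-test and 4 at an adjusted p below 0.05, where SAA4 and SERPINA3 joined. By the methods' t-test the adjusted p was 0.0266 for CRP and 0.0583 for LBP on addition and 0.0245 and 0.0317 on removal. That test was run on the values as processed here, with their own scaling, filter and choice of probe. The study, with its own processing, names CRP among the genes that DMSO lowered. Quantile normalization added SAA4 on removal (1.44, adjusted p = 0.00412). The genes not affected, 2 in each comparison, ran from 1 to 4 on addition and 1 to 3 on removal as arrays were left out, with 1 on both without D30 + DMSO replicate 2 or replicate 3 and with 4 and 3 without replicate 4.

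Over all genes, normexp background correction gave 1384 calls for D15 vs D4 in place of 2110, 659 in place of 1314 on addition and 855 in place of 1569 on removal. The methods' t-test gave 1105, 581 and 495 for these and 41 in place of 338 for D34 ± DMSO vs D30 − DMSO, for which only the arrays of the 2 conditions gave 171. The F-test at 0.05 gave 1804 in place of 1193. The 2 genes of D30 − DMSO vs D15 became 0 with the stricter filter, the 2-condition fit or the t-test, 1 without a filter, with every probe tested or with flagged spots kept, 4 with slide as a block, 6 with a floor of 10 units and 10 at an adjusted p below 0.05, and ran from 1 to 5 as arrays were left out. Slide and scan session as a block moved the median of all genes on removal to -0.12 and -0.13, in place of -0.07. Dim signal limits CRP at D4 and on D30 + DMSO replicate 4. The causes of these changes were not tested beyond what each setting leaves out.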
